A study of Mus musculus with 4 samples.

Results

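The genes described here are 9 non-clustered protocadherins, *Pcdh7*, *Pcdh8*, *Pcdh9*, *Pcdh10*, *Pcdh15*, *Pcdh17*, *Pcdh18*, *Pcdh19* and *Pcdh20*, chosen by symbol from the 56884 genes of the deposited tables, in which each of them occurred once. Their transcripts were counted in single nuclei of mouse medial cortex, taken at E16.5 (counted in days of embryonic development). All 4 libraries came from animals with *Sst-Cre/tdTomato*, that is, with a Cre recombinase driven by the somatostatin gene *Sst* and a red fluorescent reporter. The 2 control libraries had no further allele, and the 2 *Dnmt1* KO libraries were *Sst-Cre/tdTomato/Dnmt1 loxP2*, so that DNA methyltransferase 1 (*Dnmt1*) can be deleted by Cre in cells of the *Sst* lineage. Cre is thus limited to cells that turn on *Sst*, and the other nuclei of a *Dnmt1* KO library carry the loxP allele while this driver is silent. The question of the comparison was whether these adhesion genes differed between genotypes inside the *Sst* lineage or in the cells around it. The cell classes are the other comparison, made within libraries. Each genotype was represented by 2 brains of 2 mice, as many as it had libraries, and p-values measure the spread between these libraries.

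Protocadherins are cadherin-like proteins of the cell surface with extracellular cadherin repeats, a single membrane-spanning segment and a cytoplasmic tail without the catenin-binding region of classical cadherins. The non-clustered members lie scattered over the genome, unlike the clustered protocadherins, whose variable exons stand side by side and are chosen at random by each neuron. Most non-clustered members are delta-protocadherins, which support weak homophilic adhesion and sort neurons, axons and synapses by type during brain development. *Pcdh7* and *Pcdh9* belong to the delta-1 subgroup and *Pcdh8*, *Pcdh10*, *Pcdh17*, *Pcdh18* and *Pcdh19* to the delta-2 subgroup, several of which recruit the actin-nucleating WAVE complex through their tails. *Pcdh15* is best known from the inner ear, where it forms the tip link of hair cells together with *Cdh23*, and *Pcdh20* is a less studied member outside the delta groups.

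After the filter on transcripts per barcode, the *Dnmt1* KO libraries kept 5640 (replicate 1) and 12064 nuclei (replicate 2) and the controls 7047 and 4905, with 75338095 to 172783347 transcripts per library. Levels are given as CPM, the counts of a gene scaled to a common total of transcripts within its library and class. Control replicate 2 is the only library of batch 2 and was the deepest, with a median of 21140 transcripts per nucleus against 12274 to 12401 in batch 1. No barcode was shared between libraries (0 in each of the 6 pairs). Nuclei were sorted into 19 classes by marker lists, and a name ending in "-like" means that the markers of that class scored highest. Classes were uneven over the libraries: striatal-like nuclei were 3.83% of control replicate 1 and at most 0.406% elsewhere, meningeal-like nuclei were 2.06% of *Dnmt1* KO replicate 2 and at most 0.0815% elsewhere, and hippocampal-like nuclei were 13.4% and 8.91% of the *Dnmt1* KO libraries against 4.88% and 4.53% of the controls. In the MGE-interneuron-like class (interneurons of the medial ganglionic eminence, which include the *Sst* lineage) *Dnmt1* itself read 59.7 and 49.5 CPM for *Dnmt1* KO and 63.6 and 52.9 CPM for control, so that the genotypes overlapped. *Sst* was sparse even there, at 6.15, 21.1, 6.53 and 4.73 CPM in the 2 *Dnmt1* KO and then the 2 control libraries. In *Sst*+/*Gad2*+ nuclei, with at least 1 transcript of each of these genes, *Dnmt1* was at 76.1 and 46.1 against 81.2 and 66.5 CPM. Counts over the whole gene cannot show the loss of single exons, and recombined nuclei were not identified. *Xist*, transcribed in females, read 1281 and 1157 CPM for replicate 1 of either genotype but 4.13 and 0.0887 CPM for replicate 2, so that the replicate number coincided with sex, in both genotypes alike.

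All 9 members are protein-coding genes. In the GENCODE annotation of GRCm39, the build of the deposited tables, 4 of them lie within 14.1 Mb of chromosome 14, which are *Pcdh8* from 80004215 to 80008752 on the minus strand, *Pcdh17* from 84680965 to 84776442 on the plus strand, *Pcdh20* from 88694835 to 88708832 on the minus strand and *Pcdh9* from 93250846 to 94128152 on the minus strand. *Pcdh10* (45332833 to 45390058, plus strand) and *Pcdh18* (49697731 to 49711830, minus strand) are on chromosome 3. *Pcdh7* on chromosome 5 (57875004 to 58290581, plus strand), *Pcdh15* on chromosome 10 (72935174 to 74485569, plus strand) and *Pcdh19* on chromosome X (132483609 to 132589819, minus strand) stand alone. The members differ in length far more than in exonic sequence. *Pcdh15* spans 1550.4 kb for 23.8 kb of exons and *Pcdh9* 877 kb for 9.25 kb, whereas *Pcdh8* has 4.54 kb that are all exonic. Nuclear RNA holds unspliced transcripts, so that long introns can add counts where intronic reads were kept.

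*Dnmt1* methylates the cytosine of CG pairs, and the members differ in how many CG pairs stand before their start. In the RefSeq promoter table (GRCm38.p6, a different build from that of the counts), the 250 bases before the start held 23 CG pairs at *Pcdh18*, 22 at *Pcdh10*, 21 at *Pcdh17*, 18 at *Pcdh9*, 16 at *Pcdh19*, 11 at *Pcdh8*, 7 at *Pcdh7*, 6 at *Pcdh15* and 3 at *Pcdh20*. All 9 members were matched by gene, with 2 entries for *Pcdh9*. The starts are those of the RefSeq entries and were not matched to the GENCODE starts above, and positions were not converted between builds. The *Pcdh15* window ends at 73821866 on GRCm38.p6, and its GENCODE gene starts at 72935174 on GRCm39. This window may thus belong to a start inside the gene. Over 27025 promoters of the same length the median was 6 CG pairs, and 91.7% held at least 1 (CG reads the same on both strands). At least as many CG pairs as in *Pcdh18* were found in 13.0% of all promoters, and at least as many as in *Pcdh20* in 70.4%. Methylation of these windows was not measured in these nuclei. The 5 windows below are printed because they belong to the 3 members whose highest class mean exceeded the next by the largest fold (*Pcdh18*, 12.2-fold, *Pcdh19*, 2.58-fold, and *Pcdh20*, 2.09-fold) and to the members that had the smallest p-value between genotypes in 9 of 10 populations (*Pcdh15* and *Pcdh17*). They are read 5′ to 3′ on the strand of the gene, with every CG pair in capitals, and their positions on GRCm38.p6 are *Pcdh15* chr10:73821617-73821866 (plus strand), *Pcdh17* chr14:84443313-84443562 (plus), *Pcdh18* chr3:49757317-49757566 (minus), *Pcdh19* chrX:133688994-133689243 (minus) and *Pcdh20* chr14:88471397-88471646 (minus).
Pcdh15: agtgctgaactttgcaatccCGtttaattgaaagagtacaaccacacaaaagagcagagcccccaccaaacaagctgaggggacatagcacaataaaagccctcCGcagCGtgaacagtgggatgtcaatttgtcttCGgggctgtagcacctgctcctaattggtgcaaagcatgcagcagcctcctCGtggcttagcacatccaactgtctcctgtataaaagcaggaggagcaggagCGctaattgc
Pcdh17: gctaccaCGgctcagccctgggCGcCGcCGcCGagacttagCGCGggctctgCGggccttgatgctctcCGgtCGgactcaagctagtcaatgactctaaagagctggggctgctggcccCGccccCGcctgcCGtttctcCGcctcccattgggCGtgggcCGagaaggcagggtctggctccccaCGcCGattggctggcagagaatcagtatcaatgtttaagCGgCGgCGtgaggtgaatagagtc
Pcdh18: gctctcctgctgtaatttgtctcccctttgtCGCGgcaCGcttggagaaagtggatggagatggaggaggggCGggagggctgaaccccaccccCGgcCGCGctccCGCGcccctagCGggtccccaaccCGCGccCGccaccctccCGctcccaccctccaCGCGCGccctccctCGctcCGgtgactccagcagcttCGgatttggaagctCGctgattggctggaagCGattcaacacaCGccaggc
Pcdh19: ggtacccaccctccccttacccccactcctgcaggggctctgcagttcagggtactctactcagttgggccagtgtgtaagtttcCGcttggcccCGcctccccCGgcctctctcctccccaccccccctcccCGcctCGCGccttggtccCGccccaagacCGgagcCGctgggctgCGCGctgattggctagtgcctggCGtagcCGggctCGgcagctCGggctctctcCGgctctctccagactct
Pcdh20: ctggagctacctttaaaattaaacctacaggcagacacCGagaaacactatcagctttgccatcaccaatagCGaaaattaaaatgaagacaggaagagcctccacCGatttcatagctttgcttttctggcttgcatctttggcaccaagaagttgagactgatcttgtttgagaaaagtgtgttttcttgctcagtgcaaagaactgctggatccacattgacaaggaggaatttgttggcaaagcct
CG pairs are dense in the windows of *Pcdh17*, *Pcdh18* and *Pcdh19*, as frequent as in the median promoter in that of *Pcdh15* and fewer in that of *Pcdh20*.

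*Pcdh9* and *Pcdh7* had the highest levels of the 9 genes per kb of exon. Over all retained nuclei, *Pcdh9* read 2573, 3700.1, 3597 and 3115 CPM, listed as *Dnmt1* KO 1, *Dnmt1* KO 2, control 1 and control 2, the order kept for values of 4 libraries below. *Pcdh7* was at 830.0, 947, 843 and 982 CPM. Levels of different genes are compared per kb of exon: *Pcdh9* reached 351 CPM per exonic kb, *Pcdh7* 51.9, *Pcdh15* 11.5, *Pcdh19* 5.72, *Pcdh17* 5.06, *Pcdh10* 2.62, *Pcdh18* 1.58, *Pcdh8* 1.495 and *Pcdh20* 0.112. Per kb of the whole gene the range was narrower, from 3.70 CPM per kb for *Pcdh9* to 0.102 for *Pcdh20*. On that scale *Pcdh15* was 8th of the 9 in place of 3rd, and *Pcdh8* 3rd in place of 8th. Together the members made up 0.461% of all transcripts, with 0.158% in endothelial-like nuclei, 0.163% in IPC-like nuclei (intermediate progenitors) and 0.798% in layer-6-like nuclei. Most of each sum was *Pcdh9*, with 70.4% over all retained nuclei, 60.2% in endothelial-like, 54.0% in IPC-like and 82.6% in layer-6-like nuclei.

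Each member had its own distribution over the 14 classes with at least 20 nuclei in every library. A class is called above the next in the order when it was higher in all 4 libraries and the mean difference exceeded its SD. By this measure only 17 of 117 neighbouring steps were separated, so that the order is read at its ends and large steps, not class by class. In the heat map of mean levels, *Pcdh18* and *Pcdh19* each show a single bright class, *Pcdh15* and *Pcdh20* share the hippocampal-like class, and *Pcdh7* and *Pcdh17* are spread over many classes.

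**Figure D1:**
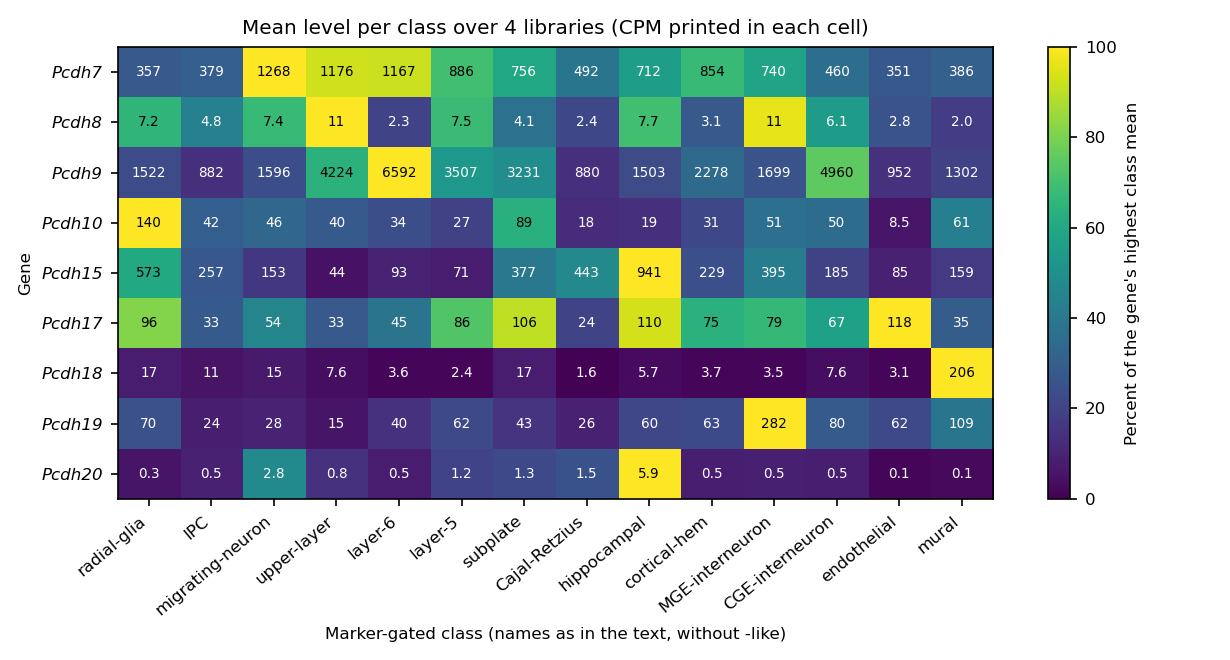
Mean level of each member (rows) in each of 14 marker-gated classes (columns) over the 4 libraries, as CPM printed in each cell, with the color giving the percent of the gene's highest class mean. *Pcdh18* peaked in mural-like nuclei (206 CPM), *Pcdh19* in MGE-interneuron-like nuclei (282 CPM) and *Pcdh9* in layer-6-like nuclei (6592 CPM).

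Classes were compared within libraries, with the library as a block, by edgeR's quasi-likelihood test on summed counts. The first 3 comparisons follow the path from radial glia, the stem cells of the cortical wall, over intermediate progenitors and migrating neurons to neurons of the upper layers. In IPC-like against radial-glia-like nuclei, 0 of 8 tested members were higher (background 21.6% of all genes tested) and 6 lower (24%). In migrating-neuron-like against IPC-like nuclei, 7 of 9 tested members were higher (background 21.9% of all genes tested) and 1 lower (19.9%), and in upper-layer-like against migrating-neuron-like nuclei, 2 of 9 tested members were higher (background 19.5% of all genes tested) and 4 lower (18.4%). Of the 7 members higher than in IPC-like nuclei, *Pcdh20* passed the filter on low counts only through the migrating-neuron-like nuclei, and without it 6 of 8 were higher. In upper-layer-like against migrating-neuron-like nuclei *Pcdh20* again passed it only through the latter. Its call among the 4 lower is not counted either, which leaves *Pcdh15*, *Pcdh17* and *Pcdh18*. Among neurons, in layer-6-like against upper-layer-like nuclei, 4 of 9 tested members were higher (background 19.7% of all genes tested) and 1 lower (17.5%), and in layer-5-like against upper-layer-like nuclei, 3 of 9 tested members were higher (background 15.9% of all genes tested) and 2 lower (13.4%). In MGE-interneuron-like against excitatory-like nuclei (the 3 layer classes together), 4 of 9 tested members were higher (background 15.1% of all genes tested) and 2 lower (17.9%). In CGE-interneuron-like against MGE-interneuron-like nuclei (caudal against medial ganglionic eminence), 2 of 8 tested members were higher (background 4.71% of all genes tested) and 2 lower (3.69%). The background shows that class comparisons called a large part of all genes, and the filter on low counts left out *Pcdh20* in 2 of the 7 comparisons (IPC-like against radial-glia-like and CGE-interneuron-like against MGE-interneuron-like nuclei). Median log2 fold changes of the tested members and of all genes tested were -0.96 and -0.01, 0.90 and 0.001, -0.62 and 0.003 for the 3 steps of the excitatory path. The members' medians of the last 2 of these steps include *Pcdh20*, which passed the filter there only through the migrating-neuron-like nuclei, and are not restated without it. The medians were 0.12 and -0.009 for layer 6, -0.18 and -0.009 for layer 5, 0.51 and -0.007 for MGE-interneuron-like nuclei, and -0.62 and -0.005 for CGE-interneuron-like nuclei.

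**Figure D2:**
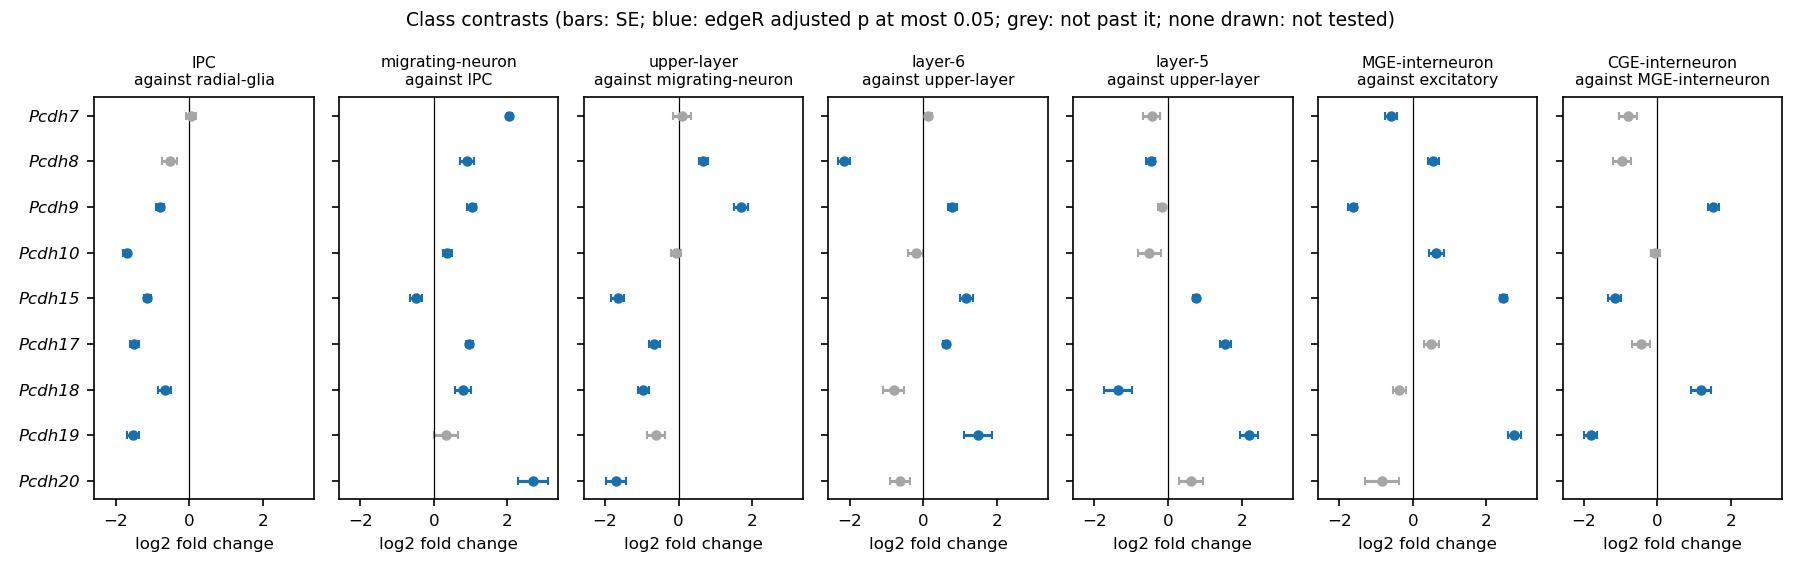
log2 fold change of each member (rows) in the 7 class comparisons (panels), with bars for the SE and blue points for an edgeR adjusted p of at most 0.05. *Pcdh15* and *Pcdh19* lie far right in MGE-interneuron-like against excitatory-like nuclei (2.46 and 2.75), and both lie left in CGE-interneuron-like against MGE-interneuron-like nuclei (-1.17 and -1.82).

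*Pcdh7*, a delta-1 protocadherin that guides retinal axons and binds the nuclear protein SET, had its highest class mean in migrating-neuron-like nuclei, a mean that rested on 1 library. It was at 2007, 987, 1127 and 952 CPM in migrating-neuron-like nuclei, with *Dnmt1* KO replicate 1 far above the other libraries, which lay close together, and without it layer-6-like nuclei had the highest mean, as layer-5-like nuclei did with Leiden clusters of all libraries. In radial-glia-like nuclei it was at 475, 358, 322 and 272 CPM, and in IPC-like nuclei at 674, 265, 305 and 273 CPM. Migrating-neuron-like nuclei were above IPC-like nuclei in all 4 libraries, with a log2 difference of 2.05 ± 0.07, adjusted p = 9.7e-07. Upper-layer-like and layer-6-like nuclei, at 1176 ± 209.6 CPM (SD, n = 4 libraries) and 1167 ± 209 CPM (SD, n = 4 libraries), were not separated from migrating-neuron-like nuclei. MGE-interneuron-like nuclei were lower than excitatory-like nuclei, by a log2 difference of -0.58 ± 0.16, adjusted p = 0.03. Layer-5-like nuclei were below layer-6-like nuclei in all 4 libraries, at 349, 1019, 985 and 1190.0 CPM. The call of *Pcdh7* in MGE-interneuron-like against excitatory-like nuclei was lost without *Dnmt1* KO replicate 2, without control replicate 1 and without control replicate 2 (adjusted p = 0.0534 to 0.11).

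*Pcdh9*, the other delta-1 member, whose loss in mice alters social recognition and the structure of sensory cortex, was highest in neuron classes of different origin, layer-6-like and CGE-interneuron-like nuclei. In layer-6-like nuclei it was at 6454, 6912, 6647 and 6353 CPM, a spread of only 246 CPM (SD, n = 4), and in CGE-interneuron-like nuclei at 3899.9, 5531, 5649.5 and 4759 CPM. All 4 layer-6-like values were above the CGE-interneuron-like values, and the latter were above upper-layer-like nuclei (3324, 5139.7, 4517 and 3917 CPM) within each library. Along the excitatory path it was lower in IPC-like than in radial-glia-like nuclei (-0.79 ± 0.12, adjusted p = 0.00063), then higher in migrating-neuron-like nuclei (1.03 ± 0.13, adjusted p = 0.0003) and higher again in upper-layer-like nuclei (1.69 ± 0.19, adjusted p = 0.00052). Layer-6-like nuclei exceeded upper-layer-like nuclei by 0.79 ± 0.11, adjusted p = 0.00248 on the log2 scale. The interneuron classes differed from each other: MGE-interneuron-like nuclei were below excitatory-like nuclei (-1.64 ± 0.12, adjusted p = 5.1e-05), and CGE-interneuron-like nuclei were above MGE-interneuron-like nuclei (1.52 ± 0.16, adjusted p = 0.00095). In MGE-interneuron-like nuclei the libraries read 1374, 2383, 1818 and 1223 CPM, so that *Dnmt1* KO replicate 1 and control replicate 2 were low and the other libraries high. The same split was present in migrating-neuron-like nuclei (743, 2429, 2164 and 1049 CPM). No call of *Pcdh9* in these comparisons was lost under any alternative run.

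*Pcdh8*, also known as arcadlin or paraxial protocadherin, is taken up from synapses together with N-cadherin (*Cdh2*) after activity, through the kinase TAO2. It was a low gene here, with 3101 transcripts in all retained nuclei. The highest levels were in upper-layer-like nuclei (10.3, 7.73, 10.4 and 15.5 CPM) and MGE-interneuron-like nuclei (12.3, 9.07, 10.4 and 10.5 CPM), which were not separated. Layer-6-like nuclei were the lowest of the layer classes, with 2.01, 1.47, 2.99 and 2.56 CPM, and were not separated from Cajal-Retzius-like and mural-like nuclei, the latter having the lowest mean. All 4 layer-6-like values were below every upper-layer-like value, and the log2 difference was -2.15 ± 0.15, adjusted p = 0.00016. Layer-5-like nuclei lay below upper-layer-like nuclei by a smaller amount (-0.47 ± 0.12, adjusted p = 0.0245). *Pcdh8* rose from IPC-like to migrating-neuron-like nuclei (0.90 ± 0.19, adjusted p = 0.00539) and again to upper-layer-like nuclei (0.67 ± 0.11, adjusted p = 0.00296). It was higher in MGE-interneuron-like than in excitatory-like nuclei (0.55 ± 0.15, adjusted p = 0.0249). No step between neighbouring classes exceeded the spread for this gene, and MGE-interneuron-like nuclei had the highest mean without control replicate 2, with doublets left out, with the range applied to mapped reads and with a gate of 3 markers. The call of *Pcdh8* in migrating-neuron-like against IPC-like nuclei was lost with a gate of 3 markers (adjusted p = 0.0635). That in layer-5-like against upper-layer-like nuclei was lost without *Dnmt1* KO replicate 2, without control replicate 1, without control replicate 2, with the range applied to mapped reads and with a gate of 3 markers (adjusted p = 0.0571 to 0.101). That in MGE-interneuron-like against excitatory-like nuclei was lost without *Dnmt1* KO replicate 2 and without control replicate 1 (adjusted p = 0.0816 to 0.116).

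*Pcdh10*, known as OL-protocadherin, is needed for the growth of striatal and thalamocortical axons. Of the 14 classes with enough nuclei in every library, it was highest in radial-glia-like nuclei, progenitors of the ventricular wall. Radial-glia-like nuclei held 102, 165, 137 and 157 CPM, and subplate-like nuclei followed with 102, 92.1, 85.3 and 77.8 CPM. Striatal-like nuclei, which had at least 20 nuclei only in *Dnmt1* KO replicate 2 and control replicate 1, held 202 and 192 CPM there. Both values were above those of radial-glia-like nuclei in the same libraries. The fall from radial-glia-like to IPC-like nuclei was -1.70 ± 0.10, adjusted p = 1.7e-06 on the log2 scale, and a small rise followed in migrating-neuron-like nuclei (0.37 ± 0.12, adjusted p = 0.041). MGE-interneuron-like nuclei were even over the libraries, at 51.1, 52.3, 54.0 and 48.5 CPM, and were above excitatory-like nuclei (0.64 ± 0.20, adjusted p = 0.0417). In layer-6-like nuclei the libraries differed more, at 20.4, 54.8, 42.9 and 16.4 CPM. The call of *Pcdh10* in migrating-neuron-like against IPC-like nuclei was lost in DESeq2, without *Dnmt1* KO replicate 1, without *Dnmt1* KO replicate 2, without control replicate 1 and with a gate of 3 markers (adjusted p = 0.063 to 0.18). That in MGE-interneuron-like against excitatory-like nuclei was lost without *Dnmt1* KO replicate 1, without control replicate 1, without control replicate 2, with the range applied to mapped reads and with a gate of 3 markers (adjusted p = 0.0563 to 0.158).

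*Pcdh17*, which recruits the WAVE complex at the contacts of growing axons and organises corticostriatal synapses, had several moderate peaks in place of a single one. The means were 118 ± 53.4 CPM (SD, n = 4 libraries) in endothelial-like, 110.2 ± 18.2 CPM (SD, n = 4 libraries) in hippocampal-like, 106 ± 34.2 CPM (SD, n = 4 libraries) in subplate-like and 95.6 ± 16.8 CPM (SD, n = 4 libraries) in radial-glia-like nuclei. No neighbouring classes were separated in this order. In endothelial-like nuclei *Dnmt1* KO replicate 2 read 190.1 CPM against 125, 74.7 and 80.3 CPM in *Dnmt1* KO replicate 1 and control replicates 1 and 2. Hippocampal-like nuclei had the highest mean without *Dnmt1* KO replicate 2 and with Leiden clusters, and subplate-like nuclei did without *Dnmt1* KO replicate 1 and with a gate of 3 markers. On the excitatory path *Pcdh17* dropped in IPC-like nuclei (-1.49 ± 0.12, adjusted p = 1.2e-05), rose in migrating-neuron-like nuclei (0.96 ± 0.10, adjusted p = 0.00012) and dropped again in upper-layer-like nuclei (-0.66 ± 0.15, adjusted p = 0.0114). Of the layer classes, layer-5-like nuclei were highest with 95.2, 105, 68.4 and 73.4 CPM. They exceeded upper-layer-like nuclei by 1.56 ± 0.16, adjusted p = 0.0007 on the log2 scale, and layer-6-like nuclei did so by 0.61 ± 0.06, adjusted p = 0.00057. The call of *Pcdh17* in upper-layer-like against migrating-neuron-like nuclei was lost without *Dnmt1* KO replicate 2, without control replicate 1 and with a gate of 3 markers (adjusted p = 0.0537 to 0.0722).

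*Pcdh18*, which binds the adaptor protein of reelin signalling, *Dab1*, was highest by far in cells of the vessel wall. Mural-like nuclei, the pericytes and smooth muscle cells around vessels, held 237, 178, 129 and 279 CPM, from 118, 317, 121 and 120 transcripts. Radial-glia-like nuclei came next at 16.6, 13.6, 18.9 and 18.5 CPM, 12.2-fold lower in the mean. Endothelial-like nuclei, the other class of the vessel, held 2.09, 5.15, 4.56 and 0.765 CPM. Among meningeal-like nuclei of *Dnmt1* KO replicate 2, the only library with at least 20 of them, the level was 50.6 CPM. In the neural classes *Pcdh18* fell from radial-glia-like to IPC-like nuclei (-0.66 ± 0.18, adjusted p = 0.0155), rose in migrating-neuron-like nuclei (0.80 ± 0.21, adjusted p = 0.0162) and fell in upper-layer-like nuclei (-0.96 ± 0.15, adjusted p = 0.00246). Layer-5-like nuclei were lower than upper-layer-like nuclei (-1.36 ± 0.39, adjusted p = 0.039), and CGE-interneuron-like nuclei were higher than MGE-interneuron-like nuclei (1.18 ± 0.27, adjusted p = 0.0361). These last 2 differences rest on 176 transcripts in layer-5-like and 100 in CGE-interneuron-like nuclei. The call of *Pcdh18* in IPC-like against radial-glia-like nuclei was lost without *Dnmt1* KO replicate 1, without *Dnmt1* KO replicate 2, without control replicate 2 and with a gate of 3 markers (adjusted p = 0.0522 to 0.0719). That in migrating-neuron-like against IPC-like nuclei was lost without *Dnmt1* KO replicate 1, without *Dnmt1* KO replicate 2 and with a gate of 3 markers (adjusted p = 0.0565 to 0.154). That in upper-layer-like against migrating-neuron-like nuclei was lost with a gate of 3 markers (adjusted p = 0.0723). That in layer-5-like against upper-layer-like nuclei was lost without *Dnmt1* KO replicate 2, without control replicate 1 and with Leiden clusters (adjusted p = 0.103 to 0.943). That in CGE-interneuron-like against MGE-interneuron-like nuclei was lost without *Dnmt1* KO replicate 2, without control replicate 1, without control replicate 2 and with Leiden clusters (adjusted p = 0.0578 to 0.349).

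*Pcdh19*, an X-linked delta-2 member whose mutation causes an epilepsy that affects mainly females, was highest in MGE-interneuron-like nuclei. MGE-interneuron-like nuclei held 378, 264, 213 and 272 CPM, mural-like nuclei 129, 139, 100.2 and 69.7 CPM and CGE-interneuron-like nuclei 84.6, 106, 74.8 and 55.0 CPM. Every MGE-interneuron-like value was above every value of the other 13 classes of the heat map, and the mean was 2.58-fold that of mural-like nuclei. *Sst*+/*Gad2*+ nuclei, a selection by transcripts and not by class, held 279, 199.6, 201 and 201 CPM, with only 16 such nuclei in *Dnmt1* KO replicate 1. The difference from excitatory-like nuclei was 2.75 ± 0.18, adjusted p = 2.5e-05 on the log2 scale, and that of CGE-interneuron-like from MGE-interneuron-like nuclei -1.82 ± 0.18, adjusted p = 0.00071. Among the excitatory classes, upper-layer-like nuclei held 5.89, 32.2, 15.8 and 8.09 CPM and layer-5-like nuclei 48.8, 84.8, 62.1 and 53.5 CPM. Both deep classes exceeded the upper layers, layer-5-like nuclei by 2.21 ± 0.25, adjusted p = 0.00104 and layer-6-like nuclei by 1.49 ± 0.38, adjusted p = 0.0237. Radial-glia-like nuclei were above IPC-like nuclei, the log2 difference of the latter being -1.52 ± 0.16, adjusted p = 6.8e-05. Control replicate 1 carried 58.8 CPM of the interneuron gene *Gad2* in its excitatory-like nuclei against 7.82, 15.2 and 6.60 CPM in the other libraries. Without that library the MGE-interneuron-like and layer-5-like differences of *Pcdh19* were 2.87 and 2.30. The call of *Pcdh19* in layer-6-like against upper-layer-like nuclei was lost without control replicate 1, without control replicate 2 and with a gate of 3 markers (adjusted p = 0.0521 to 0.0806).

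*Pcdh15* was highest in hippocampal-like nuclei and high in radial-glia-like, Cajal-Retzius-like and MGE-interneuron-like nuclei. Hippocampal-like nuclei held 1259, 1066, 808 and 630.2 CPM, radial-glia-like nuclei 689, 641, 425 and 538 CPM and Cajal-Retzius-like nuclei, the reelin cells of the marginal zone, 451, 567, 327 and 426 CPM. These 3 classes were separated from each other in this order. The highest value of any class was in OPC-like nuclei (oligodendrocyte precursors), with 2863 CPM in *Dnmt1* KO replicate 2, the only library with at least 20 such nuclei, out of 69 in all. Upper-layer-like nuclei had the lowest mean of the 14 classes, with 46.5, 56.5, 45.7 and 28.6 CPM. Along the excitatory path *Pcdh15* fell at every step, with log2 differences of -1.14 ± 0.09, adjusted p = 1.2e-05 in IPC-like, -0.48 ± 0.16, adjusted p = 0.0388 in migrating-neuron-like and -1.66 ± 0.17, adjusted p = 0.00035 in upper-layer-like nuclei. Layer-6-like and layer-5-like nuclei were above upper-layer-like nuclei (1.16 ± 0.18, adjusted p = 0.00301 and 0.76 ± 0.09, adjusted p = 0.00131), the latter reversing to -0.73 (adjusted p = 0.115) when Leiden clusters replaced the marker gate. MGE-interneuron-like nuclei, at 319.7, 578, 378 and 304 CPM, exceeded excitatory-like nuclei by 2.46 ± 0.10, adjusted p = 3.8e-06, and CGE-interneuron-like nuclei were lower than MGE-interneuron-like nuclei (-1.17 ± 0.18, adjusted p = 0.0066). Of its tip-link and Usher partners, *Cdh23* was at 9.47 CPM in hippocampal-like nuclei and *Tmc1* at 0.392 CPM (means of 4 libraries). The call of *Pcdh15* in migrating-neuron-like against IPC-like nuclei was lost without *Dnmt1* KO replicate 2, without control replicate 1 and with a gate of 3 markers (adjusted p = 0.0717 to 0.136).

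*Pcdh20* was the lowest member, with 623 transcripts in 29656 nuclei. Hippocampal-like nuclei supplied 219 of them and held 5.68, 5.16, 6.15 and 6.44 CPM, which was above the other 13 classes of the heat map in all 4 libraries. Migrating-neuron-like nuclei held 4.73, 1.74, 2.31 and 2.44 CPM. IPC-like nuclei had only 8 transcripts of it in all, at 1.40, 0.263, 0.293 and 0.189 CPM, so that *Pcdh20* entered the comparison of these classes through the migrating-neuron-like nuclei alone and its call there is no evidence of a difference. Upper-layer-like nuclei held 1.68, 0.692, 0.503 and 0.441 CPM. In their comparison with migrating-neuron-like nuclei *Pcdh20* again passed the filter only through the latter. Its call as lower there (-1.70 ± 0.28, adjusted p = 0.00296) is thus no evidence of a difference either. The call of *Pcdh20* in upper-layer-like against migrating-neuron-like nuclei was lost with Leiden clusters (adjusted p = 0.154).

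**Figure D3:**
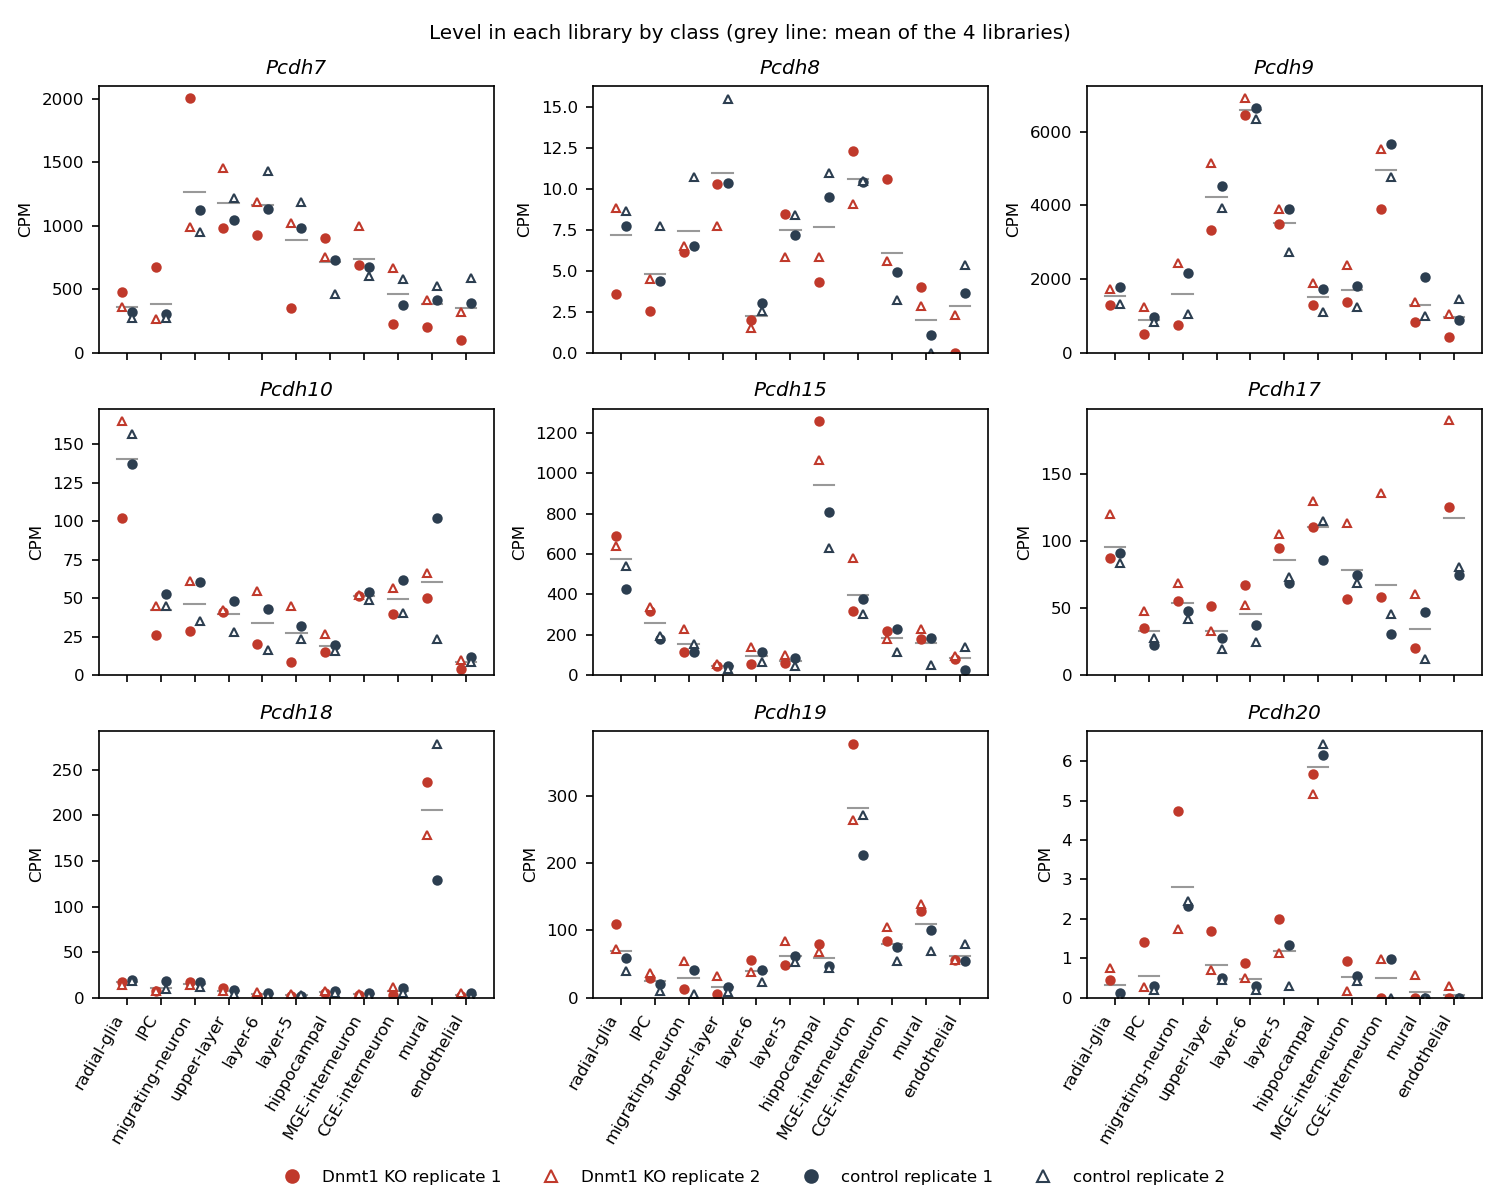
Level of each member (panels, CPM on linear axes from 0) in 11 classes, with red symbols for *Dnmt1* KO, dark symbols for control, filled circles for replicate 1, open triangles for replicate 2 and a grey line for the mean of the 4 libraries. The leading classes of *Pcdh9*, *Pcdh15*, *Pcdh18*, *Pcdh19* and *Pcdh20* stand out in all 4 libraries, whereas *Pcdh17* in CGE-interneuron-like and *Pcdh7* in migrating-neuron-like nuclei each have 1 library apart from the other 3.

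The distributions of the members over the classes were only loosely alike. Over the 14 class means, on the scale of log2(CPM + 5), the closest pair was *Pcdh7* and *Pcdh9* (r = 0.60), followed by *Pcdh10* and *Pcdh18* (0.52) and by *Pcdh17* and *Pcdh19* (0.46). *Pcdh9* and *Pcdh15* were the most opposed, at -0.44. The classes share libraries and depth, so that these values are descriptions. Of 11185 genes with at least 10 CPM in a class, outside the gate markers, those most like each member were *Clmp* and *Gria2* (r = 0.90 and 0.89) for *Pcdh7*, *Atp8a1* and *Prkar2b* (r = 0.89 and 0.89) for *Pcdh9*, *Uxs1* and *Bzw2* (r = 0.81 and 0.79) for *Pcdh8*, *2610316D01Rik* and *Gramd4* (r = 0.93 and 0.89) for *Pcdh10* and *Ipmk* and *Slco3a1* (r = 0.75 and 0.71) for *Pcdh17*. They were *Gm32067* and *Gnasas1* (r = 0.93 and 0.93) for *Pcdh18*, *Tox2* and *Cdk14* (r = 0.86 and 0.82) for *Pcdh19*, *Nova1* and *Eya1* (r = 0.84 and 0.83) for *Pcdh15* and *Gm36560* and *Gm32647* (r = 0.92 and 0.91) for *Pcdh20*. *Gria2* encodes a subunit of AMPA receptors, *Tox2* a nuclear factor and *Nova1* a splicing factor of neurons. The highest r was lowest for *Pcdh17*. With log2(CPM + 1) the nearest genes became *Gnasas1* and *Cox7a2* for *Pcdh18* and *Gm32647* and *Clcn5* for *Pcdh20*, and those of the other 7 members were the same.

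Transcripts of proteins that act with protocadherins inside the cell were counted as well. N-cadherin (*Cdh2*), with which several delta-protocadherins associate, had 1887, 1636, 1775 and 1711 CPM in the sum of all retained nuclei, and *Nckap1*, the WAVE complex subunit that binds *Pcdh10*, had 213, 213, 196 and 203 CPM. The list of 15 cytoplasmic partners held subunits of the WAVE complex, the TAO2-p38 kinases, the phosphatase *Ppp1ca*, *Set* and *Cdh2*, and all 15 were tested in each class comparison. In IPC-like against radial-glia-like nuclei *Cyfip2* and *Abi1* were higher and 5 partners lower. In migrating-neuron-like against IPC-like nuclei 7 were higher, *Nckap1* and *Cdh2* among them, and 2 lower (*Wasf2* and *Wasf3*), and in upper-layer-like against migrating-neuron-like nuclei 5 were higher. Layer-6-like nuclei had 5 higher and 5 lower partners than upper-layer-like nuclei, and layer-5-like nuclei 4 higher and 4 lower. In MGE-interneuron-like against excitatory-like nuclei *Cyfip1*, *Cyfip2*, *Wasf3*, *Abi1* and *Mapk14* were higher and *Cdh2*, *Nckap1*, *Wasf1* and *Wasf2* lower. In CGE-interneuron-like against MGE-interneuron-like nuclei edgeR called 0 of the 15, and DESeq2 called 0. By edgeR 4 of the 15 had an unadjusted p under 0.05, as had 19.65% of all genes tested in this comparison.

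Of the 6 giant cadherins of the Fat and Dachsous families, relatives of the protocadherins with very long extracellular parts, 5 were tested in the class comparisons, *Fat2* being too low. In IPC-like against radial-glia-like nuclei *Dchs1* was higher and *Fat1*, *Fat3* and *Fat4* lower, and in migrating-neuron-like against IPC-like nuclei *Fat3*, *Fat4* and *Dchs1* were higher and *Fat1* lower. Upper-layer-like nuclei had more *Fat4* than migrating-neuron-like nuclei. Layer-6-like nuclei had 3 higher (*Fat3*, *Fat4* and *Dchs2*) and 2 lower (*Fat1* and *Dchs1*) than upper-layer-like nuclei, and layer-5-like nuclei 1 higher (*Fat4*) and 2 lower (*Fat1* and *Dchs1*). In MGE-interneuron-like against excitatory-like nuclei *Dchs2* was higher and *Fat3* and *Fat4* lower, and *Fat3* was higher in CGE-interneuron-like than in MGE-interneuron-like nuclei. Of the other non-clustered protocadherins, *Pcdh1* and *Pcdh11x* were tested and *Pcdh12* was too low. *Pcdh11x* was lower in IPC-like than in radial-glia-like and in upper-layer-like than in migrating-neuron-like nuclei, and higher in MGE-interneuron-like than in excitatory-like nuclei. *Pcdh1* was higher in upper-layer-like than in migrating-neuron-like nuclei and in both deep layer classes than in upper-layer-like nuclei. In the comparisons of migrating-neuron-like with IPC-like and of CGE-interneuron-like with MGE-interneuron-like nuclei edgeR called 0 of 2, with 0 at an unadjusted p under 0.05 and 0 by DESeq2. Of the 8 tip-link and Usher partners of *Pcdh15*, 2 to 6 were tested. *Myo7a* was higher in IPC-like than in radial-glia-like nuclei, and in both deep layer classes than in upper-layer-like nuclei. *Tmc2* (in layer-6-like) and *Lhfpl5* (in both deep layer classes) passed the filter only through the deep layers, so that their calls as higher are not counted. In the other 4 comparisons edgeR called 0 partners, with 0 at an unadjusted p under 0.05 and 0 by DESeq2. All these counts stand against the background shares given with the members.

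Between the genotypes no member passed the test in any of the 10 populations. By edgeR's quasi-likelihood test with Benjamini-Hochberg adjustment, 0 of 9 tested members and 0 of 21516 genes (0%) were called in all retained nuclei, and 0 (0%) likewise in each of the other 9 populations, of 7219 to 15409 genes tested. At an unadjusted p under 0.05, members counted 4 of 9 in all retained nuclei, 0 of 6 in *Sst*+/*Gad2*+ nuclei, 1 of 8 in MGE-interneuron-like, 1 of 8 in CGE-interneuron-like, 3 of 8 in radial-glia-like, 3 of 8 in IPC-like, 1 of 9 in migrating-neuron-like, 1 of 9 in upper-layer-like, 1 of 8 in layer-6-like and 1 of 9 in layer-5-like nuclei. Over all genes the share with an unadjusted p under 0.05 was 2.66% to 7.49% over these populations. DESeq2 called 205 genes in all retained nuclei (1.15% of those with an adjusted p), among them *Pcdh15* and *Pcdh17*, and 0 to 6 genes and no member in the other populations.

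The count of calls changed with the filter on low counts. When all genes with a count entered the fit, 1 member was called in all retained nuclei (*Pcdh15*, background 0.19%), 2 in MGE-interneuron-like (*Pcdh7* and *Pcdh15*, 0.646%), 1 in CGE-interneuron-like (*Pcdh17*, 0.52%), 3 in IPC-like (*Pcdh7*, *Pcdh15* and *Pcdh19*, 0.624%), 1 in upper-layer-like (*Pcdh17*, 0.625%), 2 in layer-6-like (*Pcdh17* and *Pcdh19*, 1.16%) and 1 in layer-5-like nuclei (*Pcdh7*, 0.806%). The cause was not tested. Since these calls hold under this setting alone, apart from that of *Pcdh15* in all retained nuclei, which DESeq2 also made, each member is described below by its values in the libraries.

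*Pcdh17* had the smallest p-value of the members in 6 of the 10 populations. Over all retained nuclei it was at 78.1 and 85.0 CPM in the *Dnmt1* KO libraries and 54.4 and 47.8 CPM in the controls, a log2 fold change of 0.66 ± 0.11, adjusted p = 0.649. Both *Dnmt1* KO libraries lay above both controls, as for 19.3% of all genes tested. The same held in layer-6-like nuclei (67.0 and 52.1 CPM in the *Dnmt1* KO libraries and 37.6 and 24.9 CPM in the controls, log2 fold change 0.97 ± 0.23, adjusted p = 0.885), in layer-5-like nuclei (95.2 and 105 CPM in the *Dnmt1* KO libraries and 68.4 and 73.4 CPM in the controls, 0.51 ± 0.12, adjusted p = 0.983) and in upper-layer-like nuclei (51.3 and 32.6 CPM in the *Dnmt1* KO libraries and 27.9 and 19.1 CPM in the controls, 0.86 ± 0.29, adjusted p = 0.997), and for 12.9%, 13.8% and 11.6% of all genes tested in these classes. In migrating-neuron-like nuclei the fold change was 0.52 ± 0.16, adjusted p = 0.949, and in CGE-interneuron-like nuclei 1.46 ± 0.44, adjusted p = 1, where *Dnmt1* KO replicate 2 (136 CPM) was far above *Dnmt1* KO replicate 1 (58.2 CPM) and the controls (30.7 and 45.4 CPM). In MGE-interneuron-like nuclei, which include the *Sst* lineage among others, the libraries overlapped, at 56.9 and 114 CPM in the *Dnmt1* KO libraries and 74.8 and 68.5 CPM in the controls. *Sst*+/*Gad2*+ nuclei held 29.6 and 125 CPM in the *Dnmt1* KO libraries and 116 and 89.6 CPM in the controls, the only population in which the fitted sign was negative (-0.15). The genotype difference in MGE-interneuron-like minus that in excitatory-like nuclei was -0.57 ± 0.40 (adjusted p = 1), so that no difference between these classes was shown. With Leiden clusters in place of the marker gate the CGE-interneuron-like value was 0.25. Hippocampal-like nuclei, with the next to highest mean of *Pcdh17*, were more frequent in the *Dnmt1* KO libraries, and without them it was at 72.6 and 80.0 against 52.8 and 44.2 CPM, a log2 fold change of 0.64 ± 0.13 (an alternative added after seeing the data). The 5 markers of that class summed to 566 and 520.2 against 431 and 299.7 CPM in layer-6-like nuclei and to 3055 and 3286 against 2340.0 and 2866 CPM in migrating-neuron-like nuclei, with 2 of 5 higher in both *Dnmt1* KO libraries in either class. Their sums overlapped between genotypes in layer-5-like, upper-layer-like and CGE-interneuron-like nuclei. The part of these markers in the differences was not tested.

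*Pcdh15* had a positive fold change in all 10 populations. These populations come from the same 4 libraries, and all retained nuclei contain the others, so that a repeated sign is not independent evidence. The share of all genes with 1 sign throughout was not computed. The sum over all retained nuclei gave 382 and 329 CPM in the *Dnmt1* KO libraries and 223 and 163 CPM in the controls (log2 fold change 0.86 ± 0.17). Both *Dnmt1* KO libraries lay above both controls, as for 19.3% of all genes tested. The hippocampal-like class, in which this gene is highest, was larger in the *Dnmt1* KO libraries, and its 5 markers summed to 3266 and 2508 CPM there and to 1817 and 1687 CPM in the controls, each of the 5 being higher in both *Dnmt1* KO libraries and none at 0. Without the hippocampal-like nuclei, an alternative added after seeing the data, *Pcdh15* was at 234 and 248 against 192 and 138 CPM, a log2 fold change of 0.54 ± 0.17. Within the hippocampal-like nuclei it was at 1259 and 1066 CPM in the *Dnmt1* KO libraries and 808 and 630.2 CPM in the controls. In IPC-like nuclei it had the smallest p-value of the members, at 319 and 337 CPM in the *Dnmt1* KO libraries and 178 and 192 CPM in the controls (0.88 ± 0.12, adjusted p = 0.882), and in radial-glia-like nuclei as well, at 689 and 641 CPM in the *Dnmt1* KO libraries and 425 and 538 CPM in the controls (0.51 ± 0.14, adjusted p = 0.87). The 5 hippocampal markers summed to 4485 and 4119 against 3605 and 3569 CPM in IPC-like nuclei. Most of this was 1 marker, *Zbtb20*, at 4297.5 and 4031 against 3519 and 3485 CPM, and 2 of 5 markers were higher in both *Dnmt1* KO libraries. In radial-glia-like nuclei the sums were 4880.0 and 4994 against 4298 and 4303 CPM. There too most was *Zbtb20*, at 4650 and 4906 against 4201 and 4233 CPM, and 3 of 5 markers were higher in both. Their part in the difference within these classes was not tested. In *Sst*+/*Gad2*+ nuclei *Pcdh15* again had the smallest p-value, at 825 and 1516 CPM in the *Dnmt1* KO libraries and 669 and 851 CPM in the controls (0.69 ± 0.32, adjusted p = 1), and *Dnmt1* KO replicate 1 lay within the range of the controls. The hippocampal markers summed there to 668 and 977 against 931 and 1311 CPM. In MGE-interneuron-like nuclei *Pcdh15* overlapped between genotypes (319.7 and 578 CPM in the *Dnmt1* KO libraries and 378 and 304 CPM in the controls). The marker sums there were 705 and 860.1 against 1016 and 849.6 CPM. In upper-layer-like nuclei *Pcdh15* was at 46.5 and 56.5 against 45.7 and 28.6 CPM, and the marker sums were 467 and 469 against 482 and 297 CPM. The part of these markers was not tested in these populations either.

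*Pcdh7* had the smallest p-value in MGE-interneuron-like nuclei, the class to which *Sst* interneurons belong. It was at 688 and 997 CPM in the *Dnmt1* KO libraries and 671 and 603 CPM in the controls, a log2 fold change of 0.45 ± 0.18, adjusted p = 0.822, and the *Dnmt1* KO replicate 1 value lay barely above the higher control. It was the only member of 8 tested in this class whose libraries did not overlap with the *Dnmt1* KO libraries higher (background 12.7% of genes), and 0 of 8 did not overlap in the other direction (24.8%). In excitatory-like nuclei *Pcdh7* was at 683 and 1225 CPM in the *Dnmt1* KO libraries and 1057 and 1280.0 CPM in the controls. The test of the difference of these genotype differences, MGE-interneuron-like minus excitatory-like, gave a log2 value of 0.74 ± 0.19 (adjusted p = 1) for *Pcdh7*, the smallest p-value of the members, and called 0 of 16555 genes (0%, 351 at an unadjusted p under 0.05, 2 by DESeq2 and none of them a member). Without the low-count filter it called 118 genes (0.348%), *Pcdh7* among them. The excitatory-like level in *Dnmt1* KO replicate 1 was the lowest of the 4, and in layer-5-like nuclei it read 349 CPM against 1019, 985 and 1190.0 CPM in the other libraries.

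*Pcdh19*, which was highest in MGE-interneuron-like nuclei, was at 378 and 264 CPM in the *Dnmt1* KO libraries and 213 and 272 CPM in the controls in that class, where control replicate 2 exceeded *Dnmt1* KO replicate 2. Its fold change was positive in all 10 populations (0.23 to 1.26 on the log2 scale) and largest in IPC-like nuclei, at 29.6 and 36.9 CPM in the *Dnmt1* KO libraries and 20.2 and 9.24 CPM in the controls, from 364 transcripts. The populations share their libraries, so that repeated signs, here and for *Pcdh8* below, are not independent. In radial-glia-like nuclei *Pcdh19* was at 109 and 72.0 CPM in the *Dnmt1* KO libraries and 58.7 and 39.1 CPM in the controls. Both *Dnmt1* KO libraries lay above both controls there, as for 13.5% of all genes tested in this class. *Pcdh8* went the other way over all retained nuclei, at 5.42 and 5.53 CPM in the *Dnmt1* KO libraries and 7.00 and 9.19 CPM in the controls, and had a negative fold change in 7 of 9 populations tested. Upper-layer-like nuclei, with its highest class mean, were 8.07% and 16.3% of the *Dnmt1* KO libraries against 16.9% and 23.4% of the controls. The part of this class in the difference was not tested. *Pcdh20* was at 2.43 and 1.34 CPM in the *Dnmt1* KO libraries and 1.09 and 0.887 CPM in the controls. Within the hippocampal-like class, its highest and one that was larger in the *Dnmt1* KO libraries, it was lower in both of these (5.68 and 5.16 CPM in the *Dnmt1* KO libraries and 6.15 and 6.44 CPM in the controls), and without the hippocampal-like nuclei it was at 1.88 and 0.913 against 0.819 and 0.589 CPM. Over all retained nuclei *Pcdh18*, *Pcdh10* and *Pcdh9* were at 8.52, 9.82, 9.57 and 6.49 CPM, 32.0, 54.2, 60.5 and 37.0 CPM and 2573, 3700.1, 3597 and 3115 CPM, each with overlapping genotypes. Over all retained nuclei the libraries did not overlap for 4 of 9 members with *Dnmt1* KO higher (*Pcdh15*, *Pcdh17*, *Pcdh19* and *Pcdh20*, background 19.3% of genes) and for 1 with *Dnmt1* KO lower (*Pcdh8*, 20.7%). The median log2 fold change of the 8 members tested in MGE-interneuron-like nuclei was 0.34, against -0.006 over all genes tested. All 8 were positive there, but they were fitted on the same libraries, so that a shared sign is not independent evidence. Of these 8, only *Pcdh7* had both *Dnmt1* KO libraries above both controls (background 12.7% of genes). Over all retained nuclei the median of the 9 members was 0.18 against -0.01.

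**Figure D4:**
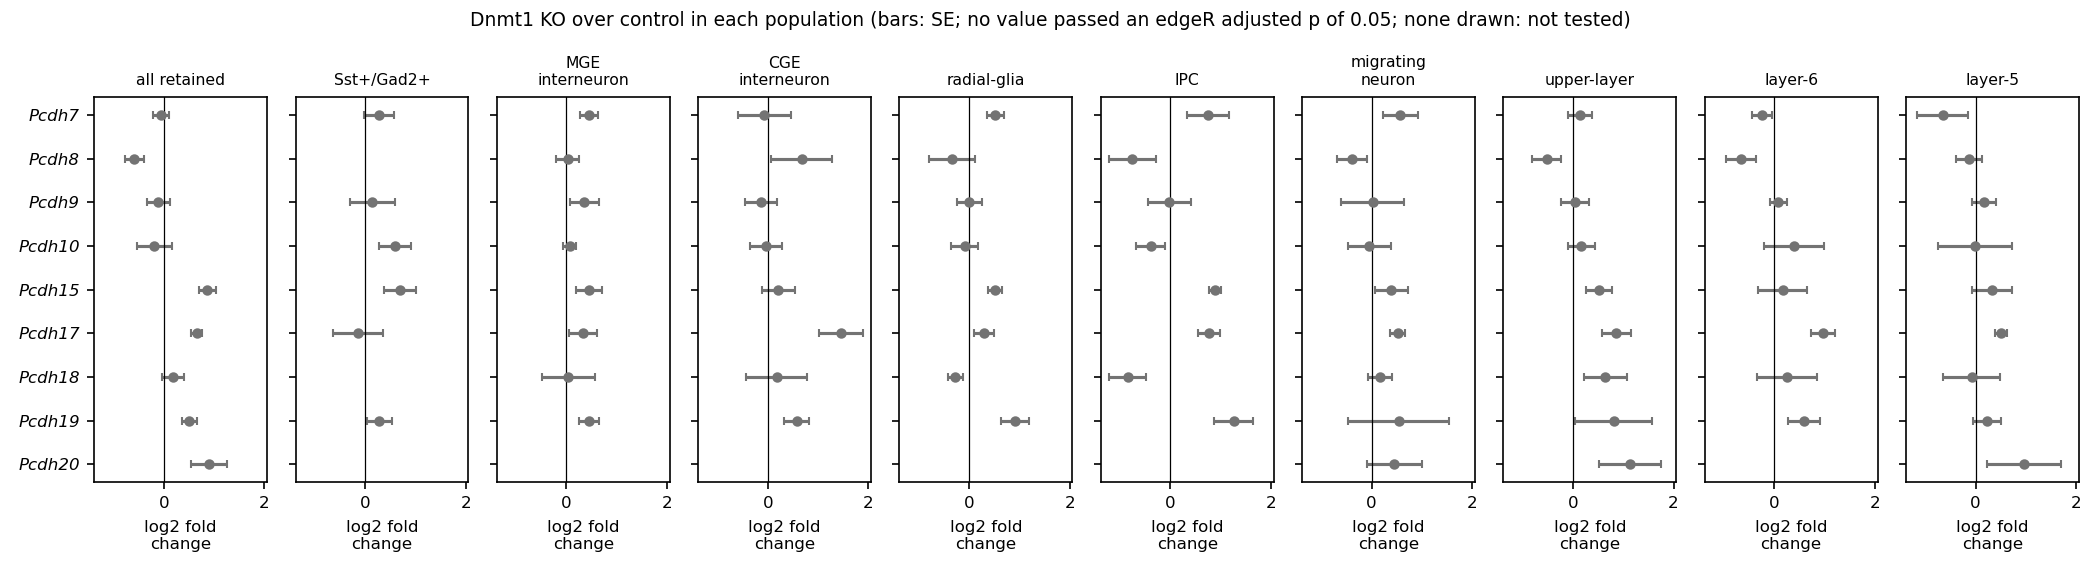
log2 fold change of *Dnmt1* KO over control for each member (rows) in 10 populations (panels), with bars for the SE and no point for a member left out by the filter. All points are grey because none passed an edgeR adjusted p of 0.05, the points of *Pcdh15* and *Pcdh19* lie right of 0 in every panel, and the largest value is that of *Pcdh17* in CGE-interneuron-like nuclei (1.46 ± 0.44).

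No gene of the 4 related lists was called between genotypes in any population by edgeR or DESeq2, and over all retained nuclei 0 of them had an unadjusted p under 0.05. The 3 genes with the smallest p-values of each list are given over all retained nuclei. Of the other non-clustered protocadherins, *Pcdh11x* was at 44.6 and 72.9 CPM in the *Dnmt1* KO libraries and 41.9 and 18.4 CPM in the controls, *Pcdh1* at 5.07 and 11.6 against 12.1 and 9.61 CPM and *Pcdh12* at 0.571 and 1.52 against 0.877 and 1.03 CPM. Of the cytoplasmic partners, *Set* (25.2 and 21.6 against 26.3 and 34.8 CPM) and *Ppp1ca* (4.38 and 4.66 against 5.09 and 5.24 CPM) were lower in both *Dnmt1* KO libraries, and *Wasf3* (43.5 and 38.2 against 38.9 and 33.5 CPM) overlapped. *Set* has near-identical copies in the genome that may share its reads. Of the tip-link and Usher partners, *Cdh23* was at 8.99 and 1.44 against 3.30 and 1.15 CPM, high in *Dnmt1* KO replicate 1 alone, *Ush1c* at 0.531 and 0.365 against 0.518 and 0.639 CPM and *Lhfpl5* at 0.743 and 0.498 against 0.748 and 0.727 CPM. Of the giant cadherins, *Fat1* (70.5 and 51.1 against 50.5 and 47.2 CPM) and *Fat4* (425 and 322 against 301 and 315 CPM) were higher in both *Dnmt1* KO libraries by small amounts, and *Fat2* (0.133 and 0.799 against 0.140 and 0.195 CPM) overlapped. Of all genes tested over all retained nuclei, 19.3% were higher in both *Dnmt1* KO libraries and 20.7% lower in both. Control replicate 2 is of another batch than the other libraries. Within batch 1, that is without it, the log2 fold changes of the members with the smallest p-value were 0.59 for *Pcdh17* in all retained nuclei, 0.38 for *Pcdh7* in MGE-interneuron-like nuclei, 0.93 and 0.67 for *Pcdh15* in IPC-like and radial-glia-like nuclei, 0.85 for *Pcdh15* in *Sst*+/*Gad2*+ nuclei, and 1.79, 0.42, 0.62, 0.72 and 0.58 for *Pcdh17* in CGE-interneuron-like, migrating-neuron-like, upper-layer-like, layer-6-like and layer-5-like nuclei, with a single control library left and none called.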

How the data were processed

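Single-nucleus RNA libraries of E16.5 medial cortex (2 *Dnmt1* KO, 2 control) were deposited as unfiltered counts of transcripts per barcode and gene, which the authors made with Trailmaker on GRCm39. The labels also name R 4.4.1 and Seurat 5.0.1.9001. Aligner version, strand setting and use of intronic reads are not given in the sources used here, so reads of overlapping or antisense genes cannot be told apart. The filter asked for 1500 to 60000 transcripts per barcode, a range that the study states for reads, and for a mitochondrial share of no more than 10%, which removed no further barcode. Doublet calls (2.96% to 7.36% per library) were kept, and leaving them out was an alternative. Nuclei were classed by marker lists (at least 2 markers detected, margin 0.1), which left 9.02% unassigned. The members are not among the markers.

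Counts were summed per library and class and tested in edgeR 4.0.16 (quasi-likelihood, TMM, filterByExpr, R 4.3.3), with Benjamini-Hochberg adjustment over all genes tested and a threshold of 0.05. Genotype fits had no covariate, and class fits had library as a block. The error after ± is the SE. Alternatives were DESeq2 1.42.0, no filter on low counts, Leiden clusters (scanpy 1.11.5), a gate of 3 markers, the range applied to mapped reads, doublets left out, each library left out and blocks. The members, lists and tests were chosen with earlier results of these data known. Named in full are members past the threshold in a class comparison, the member with the smallest p in each genotype comparison, the 3 genes with the smallest p of each list over all retained nuclei, and the 2 genes most like each member.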

Additional observations from a re-analysis of the deposited data

Results flagged for a closer look

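The log2 fold change of *Pcdh8* between genotypes, not called in any cell class, had opposite signs in different classes. In CGE-interneuron-like nuclei both *Dnmt1* KO libraries were above both controls, with a log2 fold change of 0.67, from 52 transcripts, of which *Dnmt1* KO replicate 1 and control replicate 2 had 4 each. In upper-layer-like and layer-6-like nuclei both were below both controls, with log2 fold changes of -0.53 and -0.66. Of all genes tested, 14.6% had both *Dnmt1* KO libraries above both controls in CGE-interneuron-like nuclei, and 21.5% and 24.1% had both below in upper-layer-like and layer-6-like nuclei. Of the classes without a genotype fit, *Pcdh8* was also lower in both *Dnmt1* KO libraries in hippocampal-like nuclei (4.31 and 5.86 against 9.53 and 11.0 CPM) and in endothelial-like nuclei, and higher in both in mural-like nuclei, the last 2 from 19 and 8 transcripts. The difference between the classes was not tested, and *Pcdh8* was a low gene in all of them.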

How the results depend on the processing

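The number of members called between genotypes was 0 in all 10 populations and in the interaction. It became 2 with DESeq2 and 1 without the filter on low counts in all retained nuclei, and without that filter 2 in MGE-interneuron-like, 1 in CGE-interneuron-like, 3 in IPC-like, 1 in upper-layer-like, 2 in layer-6-like and 1 in layer-5-like nuclei and 1 in the interaction. Leaving out each library gave 0 members in every genotype comparison and in the interaction, but this leaves 1 library in a genotype, which is assumed to vary like the other group, and says nothing about stability. Of the class comparisons, that of migrating-neuron-like with IPC-like nuclei called 8 members (*Pcdh20* included), 5 to 8 with each library left out (5 without *Dnmt1* KO replicate 2) and 4 with a gate of 3 markers. Layer-5-like against upper-layer-like nuclei called 5, and 3 to 6 (3 without *Dnmt1* KO replicate 2 or control replicate 1). MGE-interneuron-like against excitatory-like nuclei called 6, and 3 to 6 (3 without control replicate 1). CGE-interneuron-like against MGE-interneuron-like nuclei called 4, 3 to 4 with each library left out and 7 without the filter. The ranges were 5 to 6 for IPC-like against radial-glia-like, 5 to 8 for upper-layer-like against migrating-neuron-like and 4 to 6 for layer-6-like against upper-layer-like nuclei. The range for upper-layer-like against migrating-neuron-like nuclei includes *Pcdh20* where it was called. The cause of these changes was not tested, beyond the smaller number of libraries. Of 526 alternative values of fold changes, 472 kept their sign and their side of the threshold. The sign was reversed for 1, *Pcdh15* in layer-5-like against upper-layer-like nuclei, which was -0.733 with Leiden clusters. The 526 include genotype and interaction values, which were not called in the main fits. Of the 40 class differences that were called, 24 kept their sign and their call under every alternative. The 526, the 40 and the 24 all include values of *Pcdh20*, whose calls are no evidence of a difference. Of 72 alternative values of levels in the highest class, 5 moved by more than the SD, those of *Pcdh9*, *Pcdh18* and *Pcdh20*, and for 2 of 9 members a pseudocount of 1 changed one of the 2 most similar genes.

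With the replicate block, 0 members and 0 genes were called in all 10 populations. With 4 libraries this fit leaves very little to measure the spread, so that its lack of calls decides nothing. Deviations of libraries with the same number correlated at -0.299 to 0.1, and the numbers were not treated as pairs in the main fits. Sex, with which the number coincided, was thus not adjusted for there. With the numbers crossed between genotypes, an alternative added after seeing the data, the replicate block again called 0 genes, under the same limit. With 2 libraries per genotype, of unequal depth and batch, small differences could not be resolved, and in Sst+/Gad2+ nuclei the 16 nuclei of *Dnmt1* KO replicate 1 limit every value.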
